A study of Mus musculus with 14 samples.

Results

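Histone deacetylases (HDACs) and their corepressors were followed in mouse embryonic fibroblasts that received reprogramming factors, with the class IIa deacetylase HDAC7 or the transcription factor MEF2C added. The genes were Hdac1, Hdac2, Hdac3, Hdac6, Hdac8, Hdac10 and Hdac11, with the corepressor scaffolds Ncor1 and Rcor1, and were chosen by name from the gene annotation of the array. Of these 9 genes 8 had a named probe set, among 19935 genes in all; Ncor1 was not analysed here. The cells were ICR fibroblasts in medium for mouse embryonic stem cells, labelled SKO+HDAC7, SKO+MEF2C, SKO+Flag or GFP, with lysis on day 6 or on day 10. The labels do not spell out SKO, a usual short form for Sox2, Klf4 and Oct4, nor do they say what the Flag vector carries; all groups but GFP received SKO. Per day there were 2 arrays for each SKO vector, numbered experiment 1 and experiment 2, and 1 array for GFP, or 14 arrays in 8 groups. Whether the numbered experiments were separate cultures is not stated, and p-values here reflect the scatter among arrays, part of which may be technical. Total RNA came from the whole population after feeder cells had been removed, so fewer cells of a type and less RNA per cell cannot be told apart.

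HDACs remove acetyl groups from lysines of histones and other proteins, and histone deacetylation is associated with closed chromatin and low transcription. The class I enzymes work in nuclear complexes: HDAC1 and HDAC2 sit in the SIN3, NuRD and CoREST complexes, the last built on Rcor1, while HDAC3 is the enzyme of the NCoR complex. Class IIa enzymes such as HDAC7 have little deacetylase activity of their own and bind NCoR with HDAC3, and they repress genes bound by MEF2 factors. Class IIb comprises HDAC6, a mostly cytoplasmic enzyme that deacetylates tubulin, and HDAC10, a polyamine deacetylase, while HDAC11 is the class IV enzyme. Inhibitors of HDACs such as valproic acid are known to raise the yield of reprogrammed fibroblasts.

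Promoter sequences are shown for the 3 genes of the set that differed most between vectors: Hdac6 and Hdac2, which differed in the same direction, and Hdac8, which differed in the opposite one. Each runs 5′ to 3′ from 250 bases before to 50 bases after the transcription start that the RefSeq promoter table (GRCm38.p6) uses. For these 3 genes that start lies inside the gene as RefSeq outlines it, downstream of its outermost start, so that part of each sequence is also within the annotated gene. The capitals mark matches to a GC box (GGGCGG) or a CCAAT box (CCAAT) on either strand.
Hdac6: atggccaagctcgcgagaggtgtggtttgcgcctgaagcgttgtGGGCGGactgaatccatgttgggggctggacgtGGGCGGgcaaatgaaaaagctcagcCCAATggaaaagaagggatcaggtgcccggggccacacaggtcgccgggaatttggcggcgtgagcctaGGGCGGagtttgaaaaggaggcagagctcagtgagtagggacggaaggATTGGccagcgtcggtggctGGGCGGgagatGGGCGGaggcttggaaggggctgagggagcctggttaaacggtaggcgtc
Hdac2: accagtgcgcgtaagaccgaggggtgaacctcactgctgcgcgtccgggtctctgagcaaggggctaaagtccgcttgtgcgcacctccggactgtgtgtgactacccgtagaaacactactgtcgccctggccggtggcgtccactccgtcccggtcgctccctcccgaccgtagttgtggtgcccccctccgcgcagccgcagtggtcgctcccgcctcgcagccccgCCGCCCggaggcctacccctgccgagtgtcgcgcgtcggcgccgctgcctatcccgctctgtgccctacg
Hdac8: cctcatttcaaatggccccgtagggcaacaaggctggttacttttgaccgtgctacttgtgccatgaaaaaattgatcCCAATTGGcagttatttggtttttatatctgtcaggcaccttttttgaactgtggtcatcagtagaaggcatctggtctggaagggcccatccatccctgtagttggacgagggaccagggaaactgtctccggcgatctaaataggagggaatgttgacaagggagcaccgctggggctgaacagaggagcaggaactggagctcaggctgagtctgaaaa
They lie at chrX:7947840-7948139 (minus strand), chr10:36974294-36974593 (plus strand) and chrX:102505109-102505408 (minus strand). The Hdac6 promoter held 5 GC boxes and 2 CCAAT matches. The Hdac2 promoter held 1 GC box and no CCAAT match, and the Hdac8 promoter held no GC box and 2 CCAAT matches, which overlap each other on opposite strands. Of 32851 promoters of this length, 35.7% held a GC box and 37.4% a CCAAT match. None of the 3 sequences held the letters of an E2F motif (TTTCCCGC, TTTCGCGC, TTTGGCGC or TTTGCCGC; in 2.26% of promoters), an ETS motif (CCGGAAGT; 3.89%), an NRF1 motif (0.971%), the octamer (ATGCAAAT; 1.74%), a KLF4 motif (GGGTGTGG; 3.56%) or a MEF2 motif (3.19%), searched on both strands. The G and C content was 62.0% for Hdac6, 69.7% for Hdac2 and 49.7% for Hdac8, beside a median of 52.7% over all promoters. CpG dinucleotides numbered 20, 36 and 6 in that order of genes, beside a median of 7. In addition, the RefSeq table matched Hdac11 and Rcor1 among the measured genes.

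All values are the authors' log2 expression values, whose precision is limited by how few arrays there are. Array medians over all probe sets ranged over 5.68 to 5.76. The 2 arrays of a group had a Pearson correlation of 0.995 to 0.998 across probe sets. The added factors were high where the labels put them: Hdac7 lay at 11.2 to 11.4 on the SKO+HDAC7 arrays, against 6.78 to 7.44 on all others, and Mef2c at 9.48 to 9.93 on the SKO+MEF2C arrays, against 6.31 to 6.81 on all others. Markers were set against the median of all 19935 genes on each array. Gene means over the 14 arrays had a median of 5.96. Of 10 fibroblast markers, 9 lay above the array's gene median on all 14 arrays, and Lum did so on 9 arrays. All 8 markers of pluripotent cells, 6 of 8 of macrophages and blood, and 4 of 6 of endothelium lay below it on every array. The mean log2 value of the fibroblast markers ranged over 9.41 to 9.56 in SKO+HDAC7, 9.48 to 9.63 in SKO+MEF2C, 9.48 to 9.50 in SKO+Flag and 10.47 to 11.11 in GFP. For SKO+HDAC7 this mean joined opposite moves. Against SKO+Flag, limma called 4 of the 10 markers higher and 5 lower, beside 4.83% and 6.06% of all genes. Against SKO+MEF2C the counts were again 4 and 5, beside 10.3% and 11.8%. In SKO+MEF2C against SKO+Flag 2 were higher and 0 lower, beside 5.49% and 4.82%. The mean log2 value of 8 epithelial markers ranged over 6.44 to 7.67 in SKO+HDAC7, 5.97 to 6.33 in SKO+MEF2C, 6.08 to 6.88 in SKO+Flag and 5.63 to 5.77 in GFP. The mean of 19 cell cycle genes ranged over 8.54 to 8.59, 8.09 to 8.20, 8.23 to 8.49 and 7.63 to 7.70 in the same 4 groups. The epithelial and cell cycle lists moved with Hdac6 and Hdac2 across vectors, and opposite to Hdac8, and the fibroblast list was highest in GFP, where Hdac6 and Hdac2 were lowest. Their part in the results below was not tested.

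Hdac6, the cytoplasmic tubulin deacetylase, varied most across the 8 groups of vector and day. Its group means spanned 1.46 on the log2 scale, wider than for 95.1% of genes, beside a median span of 0.34. It was highest in SKO+HDAC7 at day 10 (8.56), followed by SKO+HDAC7 at day 6 (8.14), SKO+Flag at day 10 (8.01) and day 6 (7.79), SKO+MEF2C at day 10 (7.64) and day 6 (7.53), and GFP at day 6 (7.26) and day 10 (7.10). Every step between neighbours in that order exceeded the residual SD of the fit (0.06), which is the scatter of single arrays and not a test. The step between the days of SKO+MEF2C was not called (0.12 ± 0.06, limma adjusted p = 0.445). Hdac2 followed with a span of 1.01, wider than for 89.9% of genes. Its means were 10.1 in SKO+HDAC7 at day 10, 9.79 and 9.61 in SKO+Flag at day 10 and day 6, 9.60 in SKO+HDAC7 at day 6, 9.50 and 9.42 in SKO+MEF2C at day 10 and day 6, and 9.28 and 9.12 in GFP at day 10 and day 6. The neighbours SKO+Flag and SKO+HDAC7 at day 6 did not differ beyond the residual SD of 0.08. Hdac8, a class I enzyme that deacetylates the cohesin subunit SMC3, spanned 0.32, wider than for 45.9% of genes. Its order was largely turned round: SKO+MEF2C at day 6 was highest (6.58) and SKO+HDAC7 at day 10 lowest (6.26). In that order only the step from SKO+MEF2C at day 10 (6.45) to SKO+Flag at day 10 (6.34) exceeded the residual SD of 0.08. That step was not called either (limma adjusted p = 0.531).

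**Figure D1:**
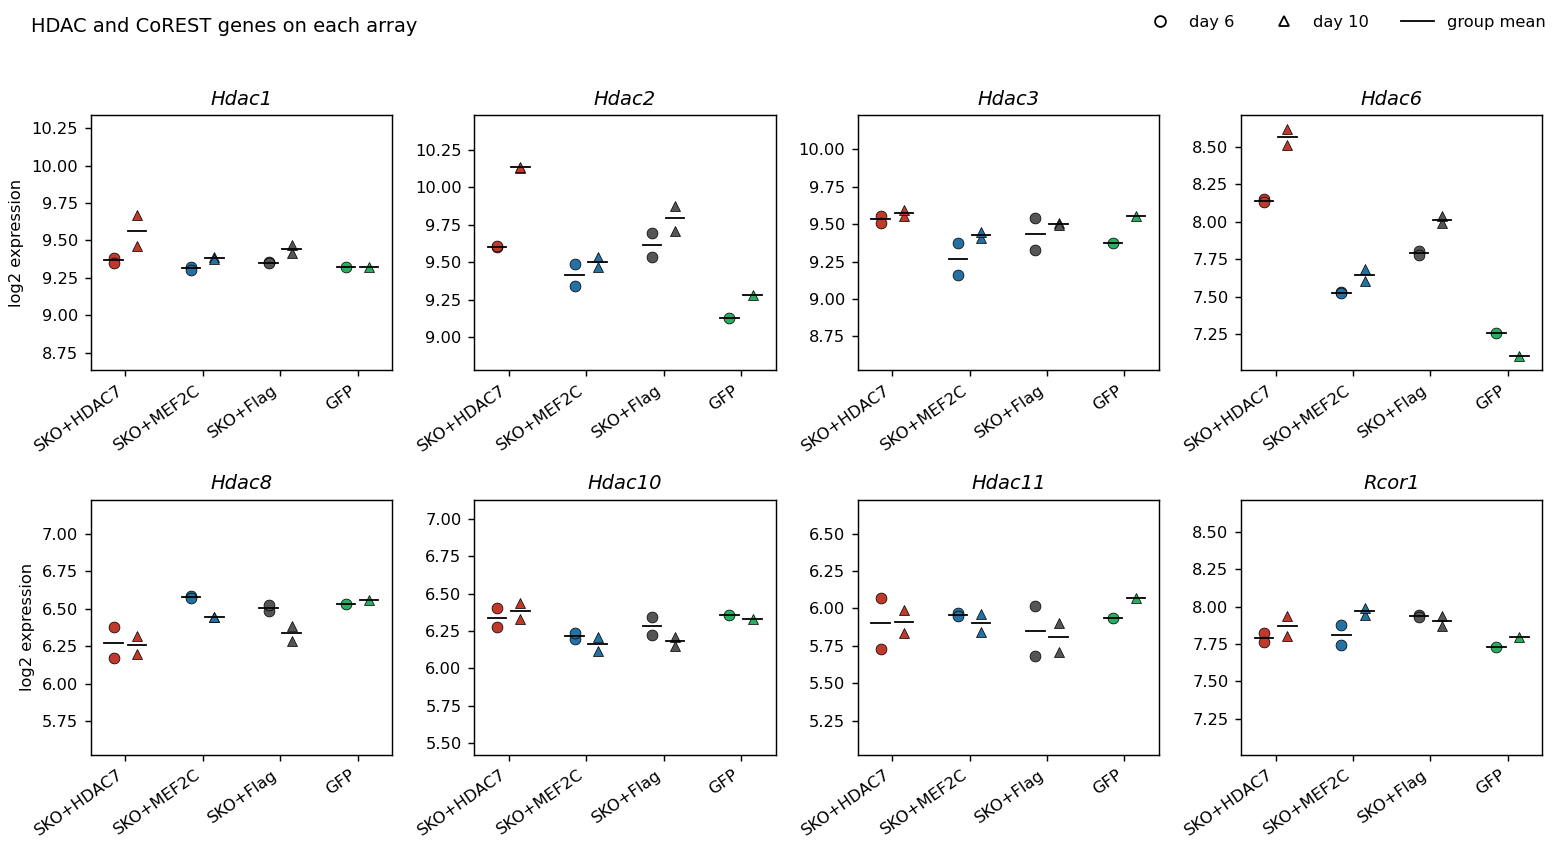
Log2 expression of the 8 measured genes on each array, by vector, with circles for day 6, triangles for day 10 and bars for group means; every panel spans the same 1.7 log2 units. Hdac6 and Hdac2 are highest in SKO+HDAC7 at day 10 and lowest in GFP, and Hdac8 is lowest in SKO+HDAC7.

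A moderated F test (limma) across the 8 groups called Hdac6 (adjusted p = 3.17e-07), Hdac2 (adjusted p = 0.000102) and Hdac8 (adjusted p = 0.0275). These 3 of 8 genes are 37.5%, a share near the 38.3% called among all genes. Among the 6 SKO groups alone the same 3 genes were called (adjusted p of 2.99e-06, 0.000527 and 0.0339), beside 25.3% of all genes. The other genes spanned 0.22 (Hdac10) to 0.31 (Hdac3) over the 8 groups, with F test adjusted p values of 0.138 to 0.879. Like Hdac8, they all spanned less than the median gene. Hdac11, which is known as a fatty acyl deacylase, lay between 5.68 and 6.07 throughout, near the median of all gene means (5.96). Its residual SD of 0.13 was the widest of the 8 genes, and its 2 SKO+Flag arrays of day 6, at 5.68 and 6.02, lay further apart than its highest and lowest group means.

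With HDAC7 on top of SKO, Hdac6 rose and no other gene of the set passed the test when both days were averaged. Of the 8 genes 1 rose and 0 fell, a share of 12.5%, beside 10.9% of all genes (4.83% higher and 6.06% lower; after median centring 698 genes were higher and 1520 lower, against 963 and 1208 as deposited). For Hdac6 the day 6 arrays read 8.15 and 8.13 in SKO+HDAC7, against 7.80 and 7.78 in SKO+Flag. The day 10 arrays read 8.62 and 8.51 in SKO+HDAC7, against 7.99 and 8.04 in SKO+Flag. All 4 SKO+HDAC7 arrays lay above both SKO+Flag arrays of their day. The difference was 0.45 ± 0.04 (SE; 4 arrays against 4, limma adjusted p = 6.68e-05), or 1.36-fold with a 95% interval of 1.28 to 1.46.

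The class I enzymes did not pass in that average. For Hdac2 the day 6 arrays read 9.60 and 9.61 in SKO+HDAC7, against 9.69 and 9.53 in SKO+Flag. The day 10 arrays read 10.13 and 10.14 in SKO+HDAC7, against 9.71 and 9.88 in SKO+Flag. The groups overlapped at day 6 and were apart at day 10. The mean difference was 0.17 ± 0.06 (limma adjusted p = 0.0889; 0.0472 without the second SKO+Flag array of day 10, and 0.0364 after quantile normalization). At day 10 alone it was 0.34 ± 0.08 (limma adjusted p = 0.0255). That call was lost without the first SKO+Flag array of day 10 (0.26, adjusted p = 0.142) and without either SKO+HDAC7 array of day 10 (adjusted p of 0.116 and 0.122). It was also lost after median centring (adjusted p = 0.0611) and in a fit to the 4 arrays compared (adjusted p = 0.109).

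For Hdac8 the day 6 arrays read 6.17 and 6.38 in SKO+HDAC7, against 6.49 and 6.53 in SKO+Flag. The day 10 arrays read 6.32 and 6.20 in SKO+HDAC7, against 6.29 and 6.39 in SKO+Flag. The SKO+HDAC7 arrays were lower at day 6 and overlapped SKO+Flag at day 10. The difference was -0.15 ± 0.05 (limma adjusted p = 0.0956), and -0.21 (adjusted p = 0.0335) without the second SKO+HDAC7 array of day 6. The remaining genes lay between -0.09 ± 0.05 for Rcor1 and 0.13 ± 0.05 for Hdac10, and each 95% interval among the 7 uncalled genes lay within -0.27 to 0.29. At day 6 alone 1 of 8 genes was called, Hdac6 at 0.35 ± 0.06 (limma adjusted p = 0.0093), beside 4.58% of all genes. That call was lost without the second SKO+Flag array (adjusted p = 0.0558) or the first SKO+HDAC7 array of day 6 (adjusted p = 0.0695), and in a fit to the 4 arrays compared (adjusted p = 0.0594). The share over all genes rested on single arrays too: the 914 genes called became 338 or 437 without the first or second SKO+Flag array of day 6, and 293 or 460 without the first or second SKO+HDAC7 array of that day. At day 10 Hdac6 was at 0.55 ± 0.06 (limma adjusted p = 0.000285) and, with Hdac2, made 2 of 8, beside 7.27% of all genes.

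With MEF2C on top of SKO, Hdac6 and Hdac2 fell. Of the 8 genes 2 fell and 0 rose, 25.0%, beside 10.3% of all genes (5.49% higher and 4.82% lower; 863 genes higher and 1142 lower after median centring, against 1094 and 960 as deposited). In SKO+MEF2C Hdac6 read 7.53 and 7.52 on the day 6 arrays and 7.61 and 7.68 on the day 10 arrays, below every SKO+Flag array listed above, at either day. The difference was -0.32 ± 0.04 (limma adjusted p = 0.000703; 4 of 4 arrays below both SKO+Flag arrays of their day), or 0.80-fold with a 95% interval of 0.752 to 0.856. Hdac2 in SKO+MEF2C read 9.49 and 9.34 on the day 6 arrays and 9.53 and 9.47 on the day 10 arrays, again with 4 of 4 arrays below both SKO+Flag arrays of their day.

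The Hdac2 difference was -0.24 ± 0.06 (limma adjusted p = 0.0183), or 0.844-fold. Its call was lost in a fit to the compared arrays alone (adjusted p = 0.0505). It was also lost without the first SKO+Flag array of day 6 (-0.20, adjusted p = 0.0711), the second SKO+Flag array of day 10 (-0.20, adjusted p = 0.054), or the second SKO+MEF2C array of day 6 (-0.21, adjusted p = 0.0795) or day 10 (-0.23, adjusted p = 0.071). The 6 uncalled genes lay between -0.12 ± 0.06 for Hdac3 and 0.10 ± 0.09 for Hdac11, with 95% intervals within -0.25 to 0.30. By day, Hdac6 was at -0.26 ± 0.06 at day 6 (limma adjusted p = 0.0409), 1 of 8 genes beside 3.10% of all genes. That call was lost under 13 of 21 alternatives. Without any 1 of the 4 arrays compared its adjusted p was 0.122 to 0.196, and without an array of another group it reached 0.0595. It was 0.0557 with the robust prior, 0.0504 after quantile normalization and 0.109 in a fit to the 4 arrays compared. The 618 genes called in all became 244 or 268 without the first or second SKO+Flag array of day 6, and 157 or 227 without the first or second SKO+MEF2C array of that day. At day 10 Hdac6 was at -0.37 ± 0.06 (limma adjusted p = 0.00344; 0.0564 in a fit to the 4 arrays compared), 1 of 8 genes beside 7.01% of all genes. Hdac2 at day 10 was at -0.29 ± 0.08 (limma adjusted p = 0.0548). That difference was called under 6 of 21 alternatives and not under 15, and ranged over -0.38 to -0.21.

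**Figure D2:**
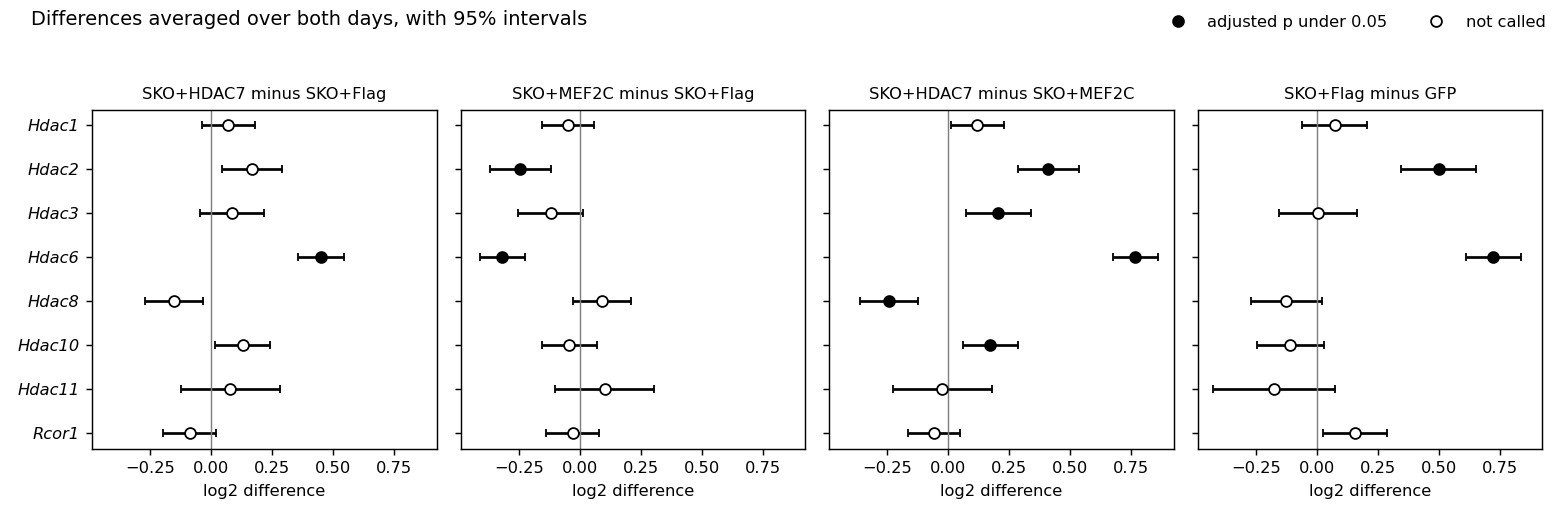
Log2 differences of the 8 genes averaged over both days, with 95% intervals from the fit; filled points have an adjusted p under 0.05. Hdac6 is at 0.45 with HDAC7, -0.32 with MEF2C, 0.77 for SKO+HDAC7 against SKO+MEF2C and 0.72 between SKO+Flag and GFP.

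SKO+HDAC7 and SKO+MEF2C, set against each other directly, differed in 5 of the 8 genes, 4 higher and 1 lower in SKO+HDAC7. That is 62.5%, beside 22.0% of all genes (10.3% higher and 11.8% lower). The genes were picked with earlier results of these data known, so the excess is a description. Hdac6 was higher by 0.77 ± 0.04 (1.70-fold, 95% interval 1.59 to 1.81; limma adjusted p = 2.93e-07) and Hdac2 by 0.41 ± 0.06 (1.33-fold, 1.22 to 1.45; limma adjusted p = 0.000311). For both genes 4 of 4 SKO+HDAC7 arrays lay above both SKO+MEF2C arrays of their day.

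Hdac8 was lower in SKO+HDAC7 than in SKO+MEF2C. SKO+MEF2C had 6.59 and 6.57 at day 6 and 6.44 and 6.45 at day 10, above every SKO+HDAC7 array given above, and the difference was -0.25 ± 0.05 (0.844-fold; limma adjusted p = 0.00696). It ranged over -0.30 ± 0.08 at day 6 (limma adjusted p = 0.0245; 0.103 to 0.18 without 1 of 3 arrays, the first SKO+HDAC7 array or either SKO+MEF2C array of that day, and 0.0535 in a fit to the 4 arrays compared) and -0.19 ± 0.08 at day 10 (limma adjusted p = 0.145). For Hdac3, the deacetylase of NCoR, the day 6 arrays read 9.56 and 9.51 in SKO+HDAC7, against 9.37 and 9.16 in SKO+MEF2C. The day 10 arrays read 9.55 and 9.59 in SKO+HDAC7, against 9.41 and 9.45 in SKO+MEF2C. The groups did not overlap, and the difference was 0.20 ± 0.06 (limma adjusted p = 0.0305). Its call was lost after median centring (adjusted p = 0.0537) and without any 1 of 7 of the 8 arrays, all but the first SKO+MEF2C array of day 6, with adjusted p values of 0.0556 to 0.119.

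For Hdac10, the polyamine deacetylase, the day 6 arrays read 6.40 and 6.28 in SKO+HDAC7, against 6.20 and 6.23 in SKO+MEF2C. At day 10 it was 6.44 and 6.33 in SKO+HDAC7, against 6.11 and 6.21 in SKO+MEF2C. Each SKO+HDAC7 array was above both SKO+MEF2C arrays of its day, by a mean of 0.17 ± 0.05 (limma adjusted p = 0.0332). With an intensity-dependent prior the adjusted p was 0.0686. Without the first or second SKO+MEF2C array of day 6 it was 0.0979 or 0.0692. It was 0.119 and 0.122 without the first SKO+HDAC7 array of day 6 and of day 10, and 0.117 without the first SKO+MEF2C array of day 10.

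Hdac1, the close relative of Hdac2, did not pass. For Hdac1 the day 6 arrays read 9.38 and 9.35 in SKO+HDAC7, against 9.33 and 9.30 in SKO+MEF2C. At day 10 Hdac1 was 9.46 and 9.67 in SKO+HDAC7, against 9.39 and 9.38 in SKO+MEF2C. The arrays did not overlap within a day, and the difference was 0.12 ± 0.05 (limma adjusted p = 0.12), with a 95% interval of 0.01 to 0.23. Quantile normalization gave 0.17 (adjusted p = 0.0198), and leaving out the first SKO+HDAC7 array of day 10 gave 0.17 (adjusted p = 0.0235). Hdac1 had another probe set, whose mean over the 14 arrays was 9.27 beside 9.39 for the one used, and the mean of both gave 0.12 (adjusted p = 0.0936). RefSeq lists an Hdac1 pseudogene, and whether these probe sets also bind its transcript or that of Hdac2 was not tested. Rcor1, the CoREST scaffold, differed by -0.06 ± 0.05 (limma adjusted p = 0.47), with SKO+HDAC7 arrays at 7.76 to 7.94 and SKO+MEF2C arrays at 7.74 to 7.99. Hdac11 differed by -0.03 ± 0.09 (limma adjusted p = 0.898). Alone at day 6, 2 of 8 genes passed (Hdac6 and Hdac8), beside 12.7% of all genes, and at day 10 also 2 (Hdac6 and Hdac2), beside 16.0%.

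SKO itself came with higher Hdac6 and Hdac2 than GFP. Of the 8 genes 2 rose and 0 fell in SKO+Flag, 25.0%, beside 35.7% of all genes (17.5% higher and 18.2% lower), so that calls were no more frequent in the set than on the array as a whole. Hdac6 lay at 7.26 at day 6 and 7.10 at day 10 in GFP, below all SKO arrays, and SKO+Flag was higher by 0.72 ± 0.05 (1.65-fold, 95% interval 1.53 to 1.79; 4 arrays against 2, limma adjusted p = 7.44e-07). Hdac2 lay at 9.12 and 9.28 in GFP, also below all SKO arrays, and SKO+Flag was higher by 0.50 ± 0.07 (1.41-fold, 1.27 to 1.57; limma adjusted p = 0.00016). By day, both passed at day 6, Hdac6 at 0.53 ± 0.07 and Hdac2 at 0.49 ± 0.10 (limma adjusted p of 0.000272 and 0.00353; 2 of 8, beside 24.1% of all genes). Both passed at day 10, Hdac6 at 0.91 ± 0.07 and Hdac2 at 0.51 ± 0.10 (limma adjusted p of 2.85e-06 and 0.00223; 2 of 8, beside 26.9%), where Hdac2 had an adjusted p of 0.057 in a fit to the 3 arrays compared. The spread of GFP, with 1 array a day, is taken from the other groups. For Rcor1 the day 6 arrays read 7.94 and 7.93 in SKO+Flag, against 7.73 in GFP. At day 10 Rcor1 was 7.87 and 7.94 in SKO+Flag, against 7.80 in GFP. All 4 SKO+Flag arrays were above the GFP array of their day, by a mean of 0.16 ± 0.06 (limma adjusted p = 0.0645). Hdac8 was at -0.13 ± 0.07 (limma adjusted p = 0.171; 0.045 after quantile normalization). The lowest difference in the set was -0.18 ± 0.11 for Hdac11, and Hdac3 was at 0.00 ± 0.07.

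The other SKO vectors were set against the same 2 GFP arrays, which these comparisons share. Hdac6 was 1.17 ± 0.05 above GFP in SKO+HDAC7 (limma adjusted p = 1.23e-08) and 0.41 ± 0.05 above it in SKO+MEF2C (limma adjusted p = 9.76e-05). Hdac2 was 0.66 ± 0.07 (limma adjusted p = 1.53e-05) and 0.25 ± 0.07 (limma adjusted p = 0.0154) above GFP in the same 2 vectors; after quantile normalization the value for SKO+MEF2C was 0.14 (adjusted p = 0.14). Hdac8 was -0.28 ± 0.07 from GFP in SKO+HDAC7 (limma adjusted p = 0.00616) and -0.03 ± 0.07 in SKO+MEF2C (limma adjusted p = 0.749). In all, 3 of 8 genes were called in SKO+HDAC7, beside 33.4% of all genes, and 2 of 8 in SKO+MEF2C, beside 31.3%.

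Between day 6 and day 10 the largest rises in the set were in SKO+HDAC7. There Hdac2 was higher at day 10 by 0.53 ± 0.08 (1.44-fold; limma adjusted p = 0.00117) and Hdac6 by 0.43 ± 0.06 (1.34-fold; limma adjusted p = 0.000764), 2 of 8 genes beside 14.6% of all genes. In both, each day 10 array lay above both day 6 arrays. Hdac1 was at 0.20 ± 0.07 (limma adjusted p = 0.0845), and at 0.30 (adjusted p = 0.0214) without the first SKO+HDAC7 array of day 10. In SKO+Flag 1 of 8 genes was called, Hdac6 at 0.22 ± 0.06 (limma adjusted p = 0.0457), beside 8.08% of all genes. That call was lost under 16 of 21 alternatives, with adjusted p values of up to 0.2, among them leaving out any 1 of the 4 SKO+Flag arrays (0.0964 to 0.187). In SKO+MEF2C limma called 0 of 8 genes, beside 3.08% of all genes (614 genes, but 250 to 317 without any 1 of the 4 SKO+MEF2C arrays), and 1 gene, Rcor1 (0.16 ± 0.07), had an unadjusted p under 0.05.

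In GFP, with 1 array a day, Hdac6 was 7.10 at day 10 against 7.26 at day 6, and Hdac2 9.28 at day 10 against 9.12 at day 6. The change of an effect between days passed limma for 0 of the 8 genes. For HDAC7 it was 0.35 ± 0.11 for Hdac2 (limma adjusted p = 0.263) and 0.20 ± 0.08 for Hdac6 (limma adjusted p = 0.389), the 2 genes with an unadjusted p under 0.05, beside 0.125% of all genes called (25 genes, but 483 without the second SKO+Flag array and 0 without the second SKO+HDAC7 array of day 10). For MEF2C no gene of the set had an unadjusted p under 0.05, and 0.0853% of all genes were called (17 genes, but 213 without the second SKO+Flag array of day 10 and 2 without the second SKO+MEF2C array of day 6). For SKO against GFP, Hdac6 was at 0.38 ± 0.10 (limma adjusted p = 0.0663; 0.041 after quantile normalization), the 1 gene with an unadjusted p under 0.05, beside 5.06% of all genes called.

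**Figure D3:**
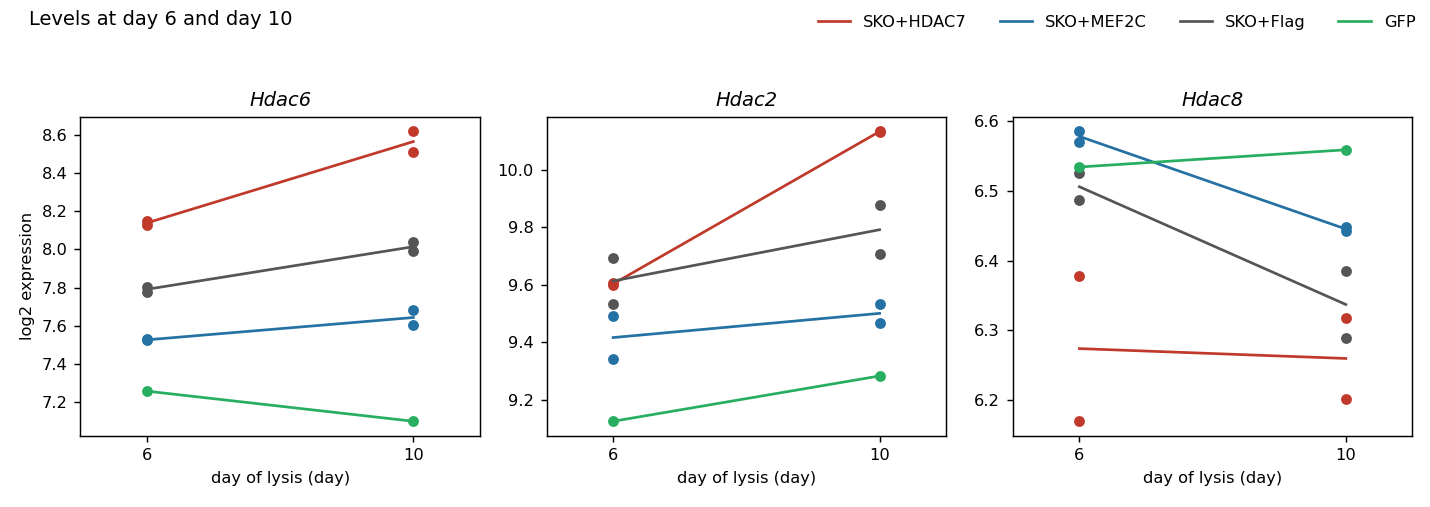
Log2 expression of Hdac6, Hdac2 and Hdac8 at day 6 and day 10, with 1 point per array and lines joining group means. Hdac2 in SKO+HDAC7 goes apart from SKO+Flag at day 10 (10.1 against 9.79), while the day 6 means are 9.60 and 9.61.

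The mean of the cell cycle genes had the same order of vectors as Hdac6. In SKO+Flag that mean was 8.23 and 8.32 at day 10, against 8.49 and 8.45 at day 6. Hdac6 was higher at day 10 on both arrays. In SKO+HDAC7 the mean was 8.58 and 8.57 at day 10, against 8.54 and 8.59 at day 6, and Hdac6 and Hdac2 rose. Between days the 8 epithelial markers had a median difference of 1.07 in SKO+HDAC7 (8 higher, beside 14.6% of all genes called). It was 0.61 in SKO+Flag (5 higher, beside 8.08%) and 0.22 in SKO+MEF2C (2 higher, beside 3.08%), with 0 lower in each. Whether cell cycle or epithelial genes have a part in the changes of Hdac6 was not tested. Of the 19 cell cycle genes 9 rose and 0 fell with HDAC7, beside 4.83% of all genes higher. With MEF2C 0 rose and 11 fell, beside 4.82% of all genes lower. In SKO+HDAC7 17 were higher and 0 lower than in SKO+MEF2C, beside 10.3% of all genes higher. In SKO+Flag 19 were higher than in GFP, beside 17.5% of all genes higher. At an unadjusted p under 0.05 limma had 1 lower with HDAC7 and 0 higher with MEF2C.

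**Figure D4:**
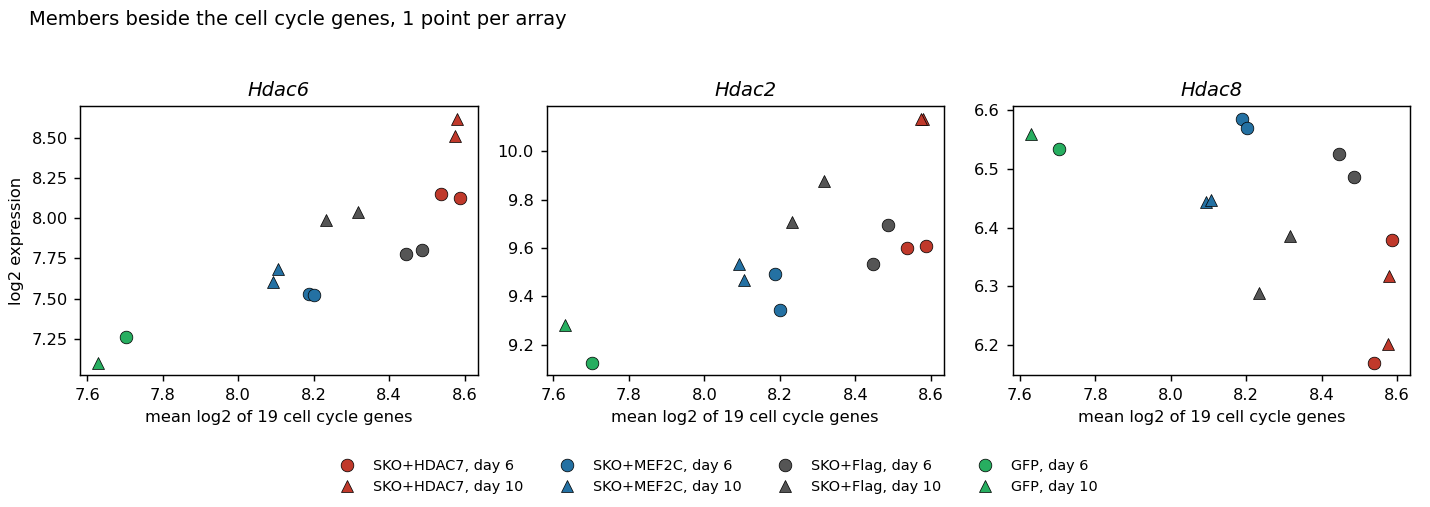
Log2 expression of Hdac6, Hdac2 and Hdac8 against the mean log2 value of 19 cell cycle genes, with 1 point per array, colours for vectors, circles for day 6 and triangles for day 10. Within SKO+Flag and SKO+MEF2C the day 10 arrays have lower cell cycle means than the day 6 arrays and higher Hdac6. Any link between them was not tested.

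Over the 12 SKO arrays, which are 6 groups of 2 and share their vectors and days, Hdac6 and Hdac2 had a Pearson correlation of 0.896. Hdac1 correlated with Hdac2 at 0.850, Hdac3 with Hdac6 at 0.747, and Hdac8 with Hdac6 at -0.802. Hdac11 and Rcor1 stood apart, with correlations between -0.288 and 0.194 to every other gene of the set. The genes most like Hdac6 over these arrays, among 9966 genes above the median level, were Urah, which encodes an enzyme of uric acid breakdown (0.979), Psme1, a subunit of the proteasome activator PA28 (0.976), and Crybg1 (0.975). Urah was at 0.90 with HDAC7, -0.39 with MEF2C and 1.32 in SKO+Flag against GFP. For Psme1 these differences were 0.37, -0.33 and 0.25, and for Crybg1 0.40, -0.35 and 1.69.

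Most partners of these enzymes did not pass the test with HDAC7, which called 4.83% of all genes higher and 6.06% lower. Of 5 measured partners in the NCoR complex 1 rose, Gps2 (0.22 ± 0.05, limma adjusted p = 0.0191), and 0 fell, with a median of 0.15, beside 0.02 over all genes. In the CoREST complex Phf21a, which binds unmethylated histone H3, fell by 0.23 ± 0.05 (limma adjusted p = 0.00915), 1 of 8, and 0 rose. Of 15 SIN3 subunits and 10 NuRD subunits limma called 0; at an unadjusted p under 0.05, 2 SIN3 subunits were higher and 1 lower, and 1 NuRD subunit was higher. With MEF2C, Tbl1xr1, a subunit of NCoR, fell by 0.29 ± 0.07 (limma adjusted p = 0.0229; 1 of 5), Sap30, a SIN3 subunit, by 0.30 ± 0.06 (limma adjusted p = 0.00896; 1 of 15) and Trerf1, a factor of the MiDAC deacetylase complex, by 0.26 ± 0.05 (limma adjusted p = 0.0102; 1 of 3). No partner in these 3 complexes rose with MEF2C at an unadjusted p under 0.05. Of 8 CoREST partners and 10 NuRD subunits limma called 0 with MEF2C. At an unadjusted p under 0.05, 2 CoREST partners and 1 NuRD subunit were lower, and 0 were higher. Over all genes 4.82% were called lower and 5.49% higher with MEF2C. These lists, like the set itself, were chosen with earlier results known.

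Between SKO+HDAC7 and SKO+MEF2C, 3 of 5 NCoR partners were higher and 0 lower (Tbl1xr1 at 0.43 ± 0.07, Coro2a at 0.21 ± 0.06 and Gps2 at 0.18 ± 0.05; limma adjusted p of 0.00089, 0.0287 and 0.0293). The list's median was 0.18, beside 0.01 over all genes, of which 10.3% were called higher and 11.8% lower. Of 15 SIN3 subunits 2 were higher, Sap30 (0.47 ± 0.06) and Brms1 (0.21 ± 0.05), and 0 lower. In NuRD Gatad2a was higher (0.14 ± 0.05) and Mbd3 lower (-0.20 ± 0.06), of 10. In CoREST Rcor2, a paralog of Rcor1, was higher (0.22 ± 0.07), and 7 of 8 partners did not pass.

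In SKO+Flag against GFP 6 of 15 subunits of the SIN3 complex rose and 1 fell, beside the 17.5% of all genes higher and 18.2% lower, with a median of 0.17, beside -0.04 over all genes. Sap30 was at 6.87 in SKO+Flag, against 5.51 in GFP (1.35 ± 0.08, limma adjusted p = 8.72e-08), Arid4b at 0.55 ± 0.16 and the histone chaperone Rbbp4, shared with NuRD, at 0.43 ± 0.06, while Brms1l fell by 0.27 ± 0.09. Rbbp4 was counted with SIN3 alone, here and above. Of 10 other NuRD subunits Mta3 rose (0.58 ± 0.06) and Mbd3 fell (-0.33 ± 0.07). Gps2 rose (0.33 ± 0.06), and Rcor2 fell by 0.28 ± 0.08.

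The opposing enzymes, histone acetyltransferases and their coactivators, had 7 higher and 0 lower of 14 in SKO+Flag against GFP, beside 17.5% of all genes higher and 18.2% lower, with a median of 0.21. Kat2b, also known as PCAF, was at 0.91 ± 0.06 (limma adjusted p = 2.38e-07), Ep300, which encodes p300, at 0.52 ± 0.07, Naa40, which acetylates histone N termini, at 0.39 ± 0.07 and Ncoa2 at 0.32 ± 0.06. With HDAC7 limma called 0 of 14, beside 10.9% of all genes (1 higher and 1 lower at an unadjusted p under 0.05). With MEF2C 3 of 14 fell and 0 rose, beside 4.82% of all genes lower and 5.49% higher. Hat1 fell by 0.30 ± 0.06, Kat6a by 0.27 ± 0.06 and Kat2b by 0.26 ± 0.05 (limma adjusted p of 0.00864, 0.0117 and 0.00461). In SKO+HDAC7 against SKO+MEF2C 5 of 14 were higher and 0 lower, beside 10.3% of all genes higher and 11.8% lower. The largest were Kat2b (0.38 ± 0.05) and Hat1 (0.33 ± 0.06).

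Of the 7 sirtuins, the NAD-dependent deacetylases, Sirt1 fell by 0.35 ± 0.07 with HDAC7 (limma adjusted p = 0.00699) and was 0.28 ± 0.08 higher in SKO+Flag than in GFP (limma adjusted p = 0.0181). Sirt2 rose with MEF2C (0.20 ± 0.05, limma adjusted p = 0.0229) and was -0.30 ± 0.06 from GFP in SKO+Flag, and Sirt4 was -0.23 ± 0.08 from it. Of 4 acetyl-lysine readers 1 passed in SKO+Flag against GFP, Brd1 (0.18 ± 0.06), beside 35.7% of all genes. None passed with HDAC7 or with MEF2C in limma, beside 10.9% and 10.3% of all genes. At an unadjusted p under 0.05, 0 readers changed with HDAC7 and 1 was lower with MEF2C. Among class IIa enzymes, besides the added Hdac7, Hdac5 fell by 0.61 ± 0.06 with HDAC7 (limma adjusted p = 0.000123), and Hdac9 rose by 0.31 ± 0.05 with MEF2C (limma adjusted p = 0.00392). In SKO+HDAC7 against SKO+MEF2C Hdac5 was at -0.60 ± 0.06 and Hdac9 at -0.41 ± 0.05 (limma adjusted p of 4.03e-05 and 0.000201), and in SKO+Flag against GFP Hdac7 was at -0.47 ± 0.07 and Hdac9 at -0.32 ± 0.07 (limma adjusted p of 0.000329 and 0.003). The comparisons of HDAC7 and of MEF2C with SKO+Flag share the SKO+Flag arrays, so their values are given side by side and not set against each other.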

How the data were processed

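RNA of each sample was hybridised to 1 Affymetrix whole-transcript array, 14 in all. The authors deposited log2 values, 1 per probe set and array; RMA and Partek are the tools in the submitters' processing notes, without versions. A genome build is not given in the sources used here. Of 28815 probe sets 21780 had 1 gene symbol, 1605 had several and 5430 had no name here; those with several or none were left out. Names were checked through Entrez IDs against RefSeq (GRCm38.p6): 21689 matched, 91 kept their annotated symbol and 0 changed. A gene with several probe sets (998 genes) took the brightest by its mean on all arrays, for 19935 genes. No filter on dim probe sets was used.

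A group-means model over 8 groups (vector by day) was fitted with limma 3.58.1 in R 4.3.3 (lmFit, eBayes; 6 residual and 4.71 prior degrees of freedom). Calls needed p under 0.05 after Benjamini-Hochberg adjustment over all genes. Intervals are at 95%. The procedure was tested on simulated data with independent noise on each array and known changes in SKO+HDAC7 alone. Such data cannot check the spread lent to GFP or scatter that arrays share. Named genes were the members, up to 4 called genes of each related list by size of change, and the 3 genes most correlated with the member of largest change. The members and lists were chosen with earlier results of these data known. Promoters came from RefSeq, with Hdac2, Hdac6, Hdac8, Hdac11 and Rcor1 matched. The alternatives comprised quantile normalization, array weights, median centring, a robust prior that follows intensity, fits to the compared arrays alone, averaging a gene's probe sets, testing only genes above the median level, the experiment number as a replicate block (over both days or within each), and leaving out each SKO array.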

Additional observations from a re-analysis of the deposited data

How the results depend on the processing

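No called difference of the 8 genes changed direction under the alternatives. Of 3244 recomputed differences 3152 kept their side of the threshold, 63 lost a call and 29 gained one. The calls of Hdac6 with HDAC7, with MEF2C, between those vectors and against GFP, averaged over days, held under all 21 or 19 alternatives run for them. Hdac6 with HDAC7 ranged over 0.42 to 0.49, and Hdac2 in SKO+HDAC7 against SKO+MEF2C over 0.37 to 0.46. Counts of called genes of the 8, other than with an array left out, moved as follows. Quantile normalization gave 2 with HDAC7 in place of 1, 6 between HDAC7 and MEF2C in place of 5, 3 in place of 2 for SKO+Flag against GFP, for SKO+MEF2C against GFP (Hdac3 and Hdac10 gained, Hdac2 lost) and for the day in SKO+HDAC7, 1 in place of 0 for the change of the SKO effect between days, and 5 in place of 3 for the F tests across the 8 groups and the 6 SKO groups. The robust prior and median centring each gave 4 between HDAC7 and MEF2C, and the robust prior 2 in place of 3 for the F test of the 6 SKO groups. The compared arrays alone gave 1 with MEF2C in place of 2. For day 10 against day 6 in SKO+Flag the count was 0 in place of 1 with the robust prior, array weights, median centring, the compared arrays alone and either replicate block. Leaving out an array gave 1 to 2 with HDAC7, 1 to 2 with MEF2C, 3 to 5 between HDAC7 and MEF2C, 0 to 1 for the day in SKO+Flag, 2 to 3 in SKO+HDAC7, 3 to 4 for SKO+HDAC7 against GFP and 2 to 4 for both F tests. In the fits with the compared arrays alone, fewer samples estimate the spread; the cause of the other changes was not tested.

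The experiment numbers did not pair the arrays in a uniform way. The difference between experiments 1 and 2 correlated at -0.242 to 0.184 between groups. The correlation was over 0.1 in 4 of 15 pairs of groups and in 3 of the 6 pairs of the same day (others down to -0.086). A partial pairing within a day is not excluded. With the experiment number as a replicate block, Hdac6 at day 6 with MEF2C had an adjusted p of 0.0593 (0.0749 within each day), and Hdac6 in SKO+Flag between days had 0.0614 (0.116). Hdac3 at day 6 between HDAC7 and MEF2C had 0.0276 with the block within each day. No other call of the 8 genes changed under either block. Comparisons with GFP have no block, since its arrays carry no number. Over all genes, the change of the HDAC7 effect between days had 25 calls, against 2 with the compared arrays alone and 69 among genes above the median level (0 to 483 with an array left out), and that of the MEF2C effect 17, against 1 and 45 (2 to 213). The day in SKO+Flag had 1610, against 504 with the compared arrays alone (944 to 1905 with an array left out), that in SKO+HDAC7 2902 (1571 to 3367), that in SKO+MEF2C 614, against 994 with array weights (250 to 739), and the change of the SKO effect 1008, against 206 with the compared arrays alone. By day, HDAC7 had 914 calls at day 6 (293 to 1266 with an array left out) and 1450 at day 10 (785 to 1484), MEF2C 618 (157 to 772) and 1397 (691 to 1421), and HDAC7 against MEF2C 2525 at day 6 (1313 to 2891). With the compared arrays alone HDAC7 had 375 and 501 and MEF2C 351 and 502. Other scalings moved the median of all genes by less than 0.1. No outlier test applies to groups of 2 arrays. No detection calls were used, so levels near the median of all genes, such as that of Hdac11, are not shown to be above background.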
